A study of Mus musculus with 4 samples.

Results

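Natural killer (NK) cells read their targets through families of surface receptors, and 9 genes for such receptors were followed here across the lymphocytes of the mouse liver. They are Klrd1, Klrc1, Klrc2 and Klrk1 of the CD94/NKG2 family, Klrb1b and Klrb1c of the NKR-P1 family (NK1.1 is the product of Klrb1c), Klrg1, the natural cytotoxicity receptor gene Ncr1, and Cd226. They were chosen by symbol and make up 9 of the 32285 genes in the deposited matrices. No member was used to sort cells into classes, so no cell was placed in a class by UMIs of a member.

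CD45+ cells were sorted from the livers of female C57BL/6 mice and sequenced as 5′ single-cell libraries, 1 library per group. The first group was wild type (WT), about 8 weeks old and untreated (WT young). The other 3 groups were about 36 weeks old by the labels, had received diethylnitrosamine (DEN) at 25 mg/kg into the peritoneum on day 14, and ate a choline-deficient diet with 60% fat (CDHFD) from weaning on day 21. Their genotypes were WT, miR-146a-/-, and miR-146a-/- Ccl5-/- (DKO); DEN and CDHFD together induce liver cancer in mice. How many mice went into a library is not given. The matrices held 10985 cells for WT young, 9120 for WT DEN-CDHFD, 8393 for miR-146a-/- DEN-CDHFD and 10623 for DKO DEN-CDHFD, with 90756272, 103165826, 88706063 and 103147246 unique molecular identifiers (UMIs). After filters 10283, 8329, 7824 and 9850 cells were kept, with a median of 6782, 8210, 7910 and 7558 UMIs per cell. Of 38367 distinct cell barcodes, 745 (1.94%) occurred in more than 1 library, and each pair of libraries shared 109 to 150. With 1 library per group no difference between groups has a replicate check, and every interval below covers counting error only.

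CD94, the product of Klrd1, pairs with NKG2A (Klrc1) into an inhibitory receptor and with NKG2C (Klrc2) into an activating receptor, both of which read the non-classical class I molecule Qa-1. NKG2D (Klrk1) is an activating receptor for stress-induced ligands, NKp46 (Ncr1) is an activating receptor that marks NK cells and group 1 innate lymphoid cells, and CD226 competes with TIGIT and CD96 for nectin-family ligands. In the liver these receptors sit on circulating NK cells, on resident type 1 innate lymphoid cells (ILC1) and on part of the T cells, and they are studied for their part in the defence against liver tumours.

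Cells were assigned to classes by other transcripts. NK cells and ILC1 had at most 2 UMIs of the CD3 genes together with UMIs of cytotoxic and innate genes, and were told apart by whether NK markers such as Eomes and Itgam or ILC1 markers such as Itga1 and Cxcr6 had more UMIs. T cells had at least 3 CD3 UMIs and were divided into gamma-delta, NKT-like (Zbtb16 without Cd8a or Cd8b1), regulatory (Treg, Cd4 and Foxp3), conventional CD4, CD8 with Pdcd1 (PD-1+), CD8 naive-like (PD-1- with at least 3 UMIs of naive-cell markers such as Ccr7, Lef1 and Tcf7) and other CD8 cells (PD-1- non-naive). In the order WT young, WT DEN-CDHFD, miR-146a-/- DEN-CDHFD and DKO DEN-CDHFD, which is kept throughout, there were 953, 620, 467 and 611 NK cells. ILC1 numbered 512, 656, 364 and 602. PD-1+ CD8 cells numbered 338, 1334, 1529 and 1258, so the untreated library held the fewest, and NKT-like cells numbered 1438, 155, 132 and 157, so there it held the most. The 9 lymphocyte classes took in 16952 of the 36286 kept cells. Lymphocytes with more than 1 UMI of B-cell markers or more than 1 of myeloid markers were left out of these classes. B cells, which should lack the members, serve as the background, with 1116, 645, 415 and 643 cells.

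The gates were checked against markers. Summed UMIs of a class are given as CPM, that is UMIs of the gene in every 1000000 UMIs of the class. Eomes, which counted toward NK cells, stood at 349, 347, 301 and 318 CPM in NK cells and at 6.62, 12.0, 13.0 and 12.4 CPM in ILC1. Cd160 and Klra8, which were not in the gates, also separated the classes. Klra8 reached 637, 338, 528 and 470.0 CPM in NK cells against 7.82, 6.01, 17.6 and 20.7 CPM in ILC1, and Cd160 reached 122, 177, 286 and 247 CPM in NK cells against 851, 650.4, 598 and 560.4 CPM in ILC1. The cells called naive-like had more UMIs than other CD8 cells (medians of 10052, 10409, 10260 and 10045.5) and held Ccl5 at 6499.9, 7159 and 12339.8 CPM in the libraries with that gene, so they are naive-like by their gate alone.

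The deleted gene was read first. Ccl5 over all kept cells stood at 6174 CPM in WT young, 12544 CPM in WT DEN-CDHFD, 12496 CPM in miR-146a-/- DEN-CDHFD and 65.4 CPM in DKO DEN-CDHFD. In NK cells it stood at 19209.7, 12966, 19092 and 101 CPM. The library labelled DKO was thus the lowest by far, as its label says. The matrices hold no gene for miR-146a, which was not analysed here.

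The NK gene complex and its neighbours hold most of the members, which lie on chromosome 6 by the GENCODE M21 annotation of GRCm38. Klrd1 (ENSMUSG00000030165, chr6:129591782-129598775, plus strand), Klrk1 (ENSMUSG00000030149, chr6:129610323-129623864, minus strand), Klrc2 (ENSMUSG00000052736, chr6:129647496-129660689, minus strand) and Klrc1 (ENSMUSG00000030167, chr6:129666015-129678973, minus strand) share a stretch of 87.2 kb of the NK gene complex. Klrb1c (ENSMUSG00000030325, chr6:128778485-128789215, minus strand) and Klrb1b (ENSMUSG00000079298, chr6:128813706-128826331, minus strand) lie together nearer the centromere, and Klrg1 (ENSMUSG00000030114, chr6:122270596-122282882, minus strand) lies farther out in the same direction. Ncr1 (ENSMUSG00000062524, chr7:4337724-4345164, plus strand) and Cd226 (ENSMUSG00000034028, on chromosome 18) lie elsewhere. The longest open reading frames of Klrc1 and Klrc2 were 83.1% identical, those of Klrc2 and its neighbour Klrc3 94.9%, and those of Klrb1b and Klrb1c 86.0%, so reads of near-identical stretches could be split between copies or left uncounted.

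The 250 bases before the start of each gene were searched for short letter patterns, chosen after the data were seen. The RefSeq table (GRCm38.p6) held 6 of the 9 members, and has no entry for Klrd1, Klrg1 and Cd226. The letters TGTGGT, the core that RUNX factors bind, occurred on 1 strand or the other in 5 of the 6 (Klrc1, Klrc2, Klrk1, Klrb1c and Ncr1), against 15.9% of 27025 genes. Of T-box letters, GGTGTG was in 1 of the 6 (Klrb1b) against 18.3% of genes, AGGTGTG in 0 against 5.88%, and TCACAC in 1 (Ncr1) against 13.9%. GGTGTG is contained in AGGTGTG, and so the counts overlap. Letters of ETS factors were found as GGAAGT in 2 of the 6 (Klrb1b and Klrb1c) against 22.2% of genes, as CAGGAAG in 0 against 12.1% and as TTTCCTCT in 0 against 3.22%, and TGACGTCA was in 0 against 1.77%. The windows of Klrc1 (chr6:129678974-129679223, minus strand), Klrk1 (chr6:129623865-129624114, minus strand) and Ncr1 (chr7:4337465-4337714, plus strand) are printed 5′ to 3′ because they show the shared letters in 1 inhibitory and a pair of activating receptors. Capitals mark TGTGGT or its reverse complement ACCACA, whose first base lies 87 bases before the start in Klrc1, 129 in Klrk1, and 176 and 41 in Ncr1.

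Klrc1: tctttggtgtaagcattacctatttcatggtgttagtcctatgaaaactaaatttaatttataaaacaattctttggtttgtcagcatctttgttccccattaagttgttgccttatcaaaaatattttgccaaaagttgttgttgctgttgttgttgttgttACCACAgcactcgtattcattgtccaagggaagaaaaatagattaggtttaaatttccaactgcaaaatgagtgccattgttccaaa

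Klrk1: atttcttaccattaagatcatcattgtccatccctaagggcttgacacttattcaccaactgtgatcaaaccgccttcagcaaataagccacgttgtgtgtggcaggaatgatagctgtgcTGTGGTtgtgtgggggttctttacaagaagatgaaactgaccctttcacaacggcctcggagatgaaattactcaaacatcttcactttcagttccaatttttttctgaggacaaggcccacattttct

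Ncr1: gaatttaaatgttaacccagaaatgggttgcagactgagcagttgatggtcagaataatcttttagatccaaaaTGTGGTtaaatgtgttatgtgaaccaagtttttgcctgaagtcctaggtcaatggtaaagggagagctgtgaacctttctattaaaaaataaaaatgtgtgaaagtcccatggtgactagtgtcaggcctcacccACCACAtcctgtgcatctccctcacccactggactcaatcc

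A match of letters describes the window and shows no binding.

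**Figure D1:**
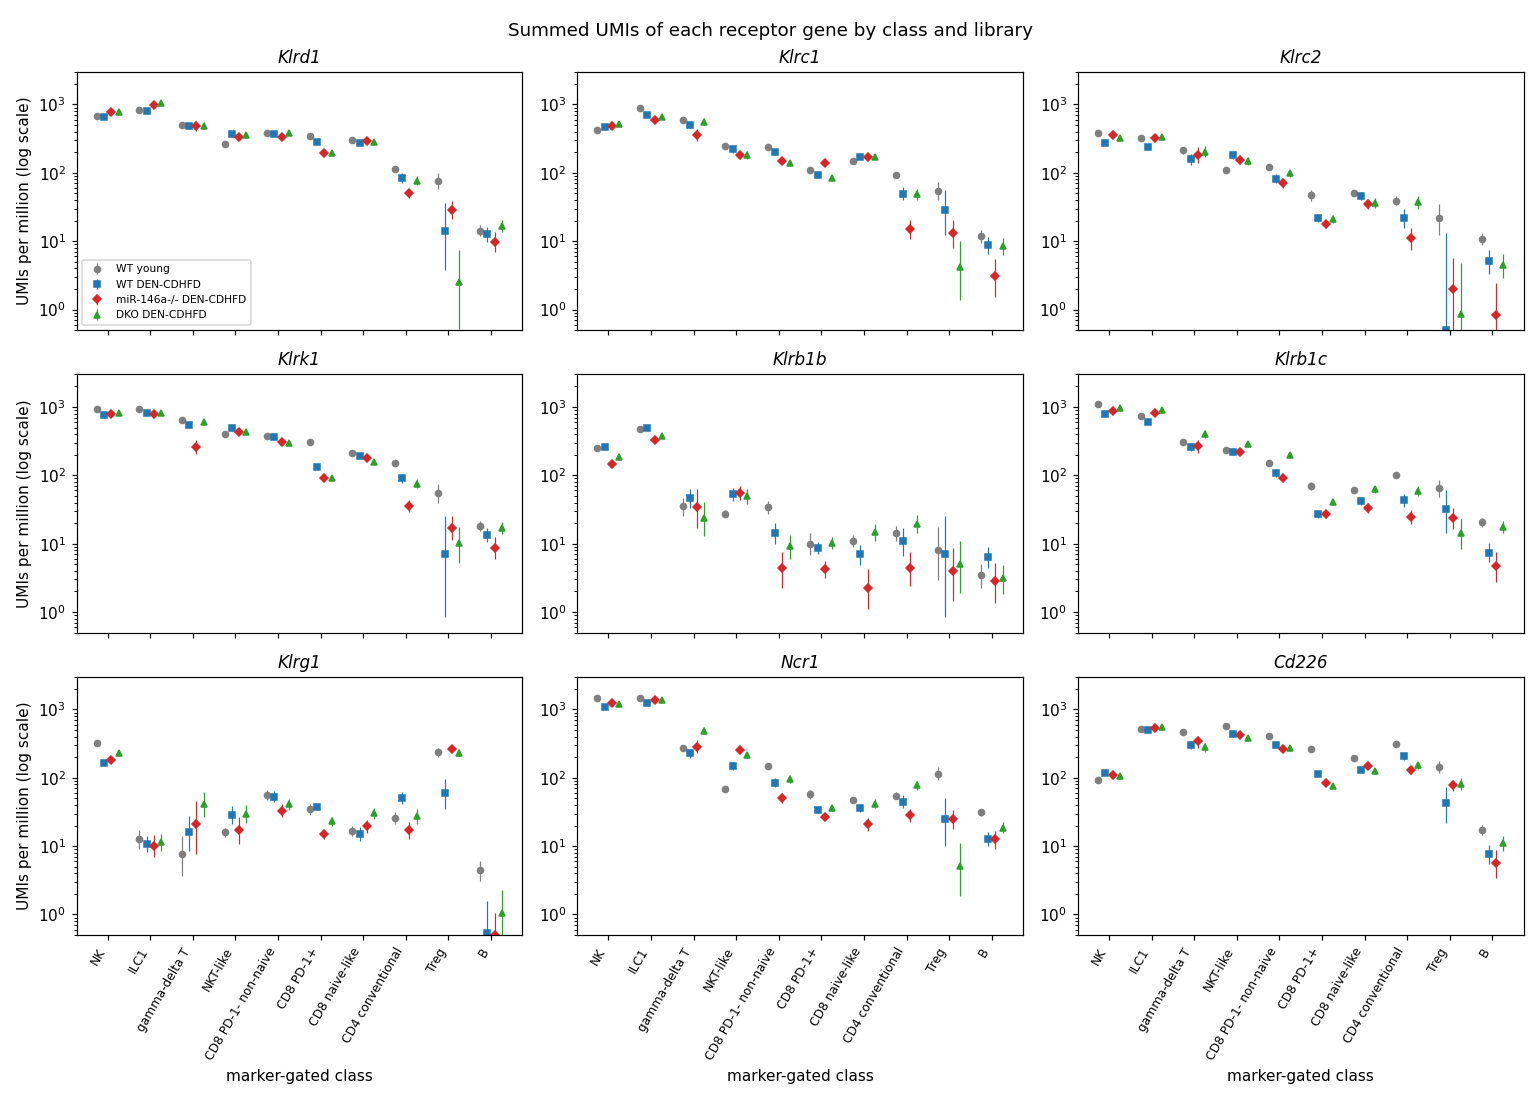
Summed UMIs of each gene as CPM (log scale, values under 0.5 drawn at 0.5) in 9 lymphocyte classes and B cells, 1 marker per library with exact 95% Poisson intervals. Klrg1 stands at 167 to 323 CPM in NK cells and at 10.2 to 12.6 CPM in ILC1, while Cd226 stands at 92.4 to 118 CPM in NK cells and at 498 to 545 CPM in ILC1.

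Klrd1, the shared chain of the CD94/NKG2 receptors, stood at 673, 655, 776 and 779.8 CPM in NK cells. In ILC1 it stood at 837, 801, 995 and 1065 CPM, above NK cells in each of the 4 libraries. In B cells it was at 14.2, 12.7, 9.83 and 16.8 CPM. The class order by mean level ran from ILC1 over NK, gamma-delta T, PD-1- non-naive CD8 and NKT-like cells to naive-like CD8, PD-1+ CD8, conventional CD4 and Treg cells. NKT-like cells were above naive-like CD8 cells in 3 of 4 libraries and naive-like above PD-1+ CD8 cells in 2 of 4, and every other step of that order held in all 4. Myeloid cells held 145, 156, 114 and 117 CPM of it, above B cells in each library and below NK cells.

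Klrc1, the inhibitory NKG2A chain, stood at 426, 464, 485 and 509.9 CPM in NK cells and at 874, 691, 591 and 654 CPM in ILC1. Gamma-delta T cells held 588, 507, 361 and 560.1 CPM, with 155, 80, 33 and 62 cells behind these values. ILC1 were the highest in all 4 libraries, gamma-delta T cells were above NK cells in 3 of 4, and NKT-like cells (249, 220.4, 182 and 184 CPM) were next. PD-1- non-naive CD8 cells, at 238, 199, 147 and 141 CPM, exceeded naive-like CD8 cells in 2 of 4 libraries. With each cell thinned to 2000 UMIs before gating, the highest class by mean became gamma-delta T cells at 769 CPM against 646 CPM in ILC1.

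Klrc2, the activating NKG2C chain, stood at 386, 272, 356 and 325 CPM in NK cells and at 324, 236, 326 and 329 CPM in ILC1. NK cells were above ILC1 in 3 of 4 libraries, and the sides were level in DKO. NKT-like cells, at 110.5, 183, 156 and 150.4 CPM, were lowest in WT young. PD-1+ CD8 cells held 46.7, 22.0, 17.9 and 21.0 CPM, with WT young the highest, and lay above conventional CD4 cells in 3 of 4 libraries.

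Klrk1, whose product NKG2D signals through the adaptor DAP10 (Hcst), stood at 941, 751, 798 and 829 CPM in NK cells and at 929, 824, 797 and 814 CPM in ILC1. ILC1 exceeded NK cells in 1 of 4 libraries, and thinning before gating put NK cells first by mean, at 850.5 CPM against 807 CPM. NKT-like cells held 408, 485, 434 and 435 CPM, and PD-1- non-naive CD8 cells 379.6, 369, 309 and 293 CPM. PD-1+ CD8 cells held 307 CPM in WT young and 133, 92.3 and 90.2 CPM in the treated libraries, so the untreated value was the highest and the treated values did not reach it.

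Klrb1b encodes NKR-P1B, an inhibitory receptor for a C-type lectin of the Clec2 family. It stood at 247, 257, 148 and 188 CPM in NK cells and at 468, 487, 330.3 and 373 CPM in ILC1. In each class the miR-146a-/- library was the lowest and DKO the next lowest. NKT-like cells held 27.6, 52.4, 55.8 and 49.2 CPM, and PD-1- non-naive CD8 cells 34.0, 14.4, 4.37 and 9.27 CPM, with WT young the highest. PD-1+ CD8 cells, at 10.0, 8.73, 4.26 and 10.2 CPM, stand beside a B-cell level of 3.44, 6.33, 2.81 and 3.11 CPM, with intervals that overlap in WT DEN-CDHFD and miR-146a-/- and not in WT young and DKO.

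Klrb1c encodes NK1.1, the activating NKR-P1C receptor used to stain NK cells in C57BL/6 mice. It stood at 1099, 783, 862 and 974 CPM in NK cells and at 741, 596, 826 and 898 CPM in ILC1, so NK cells were above ILC1 in all 4 libraries. Gamma-delta T cells (303, 259.8, 267 and 403 CPM), NKT-like cells (233, 222, 221 and 289 CPM) and PD-1- non-naive CD8 cells (149, 108, 91.0 and 201 CPM) followed in that order in all 4. PD-1+ CD8 cells held 69.5, 26.8, 26.8 and 41.2 CPM. WT young was again the highest of them, and B cells held 20.6, 7.41, 4.77 and 17.4 CPM, with WT young and DKO above the other pair.

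Klrg1, an inhibitory receptor for cadherins and a marker of mature NK cells and of effector T cells, stood at 323, 167, 184 and 229 CPM in NK cells. In ILC1 it stood at 12.6, 10.9, 10.2 and 11.3 CPM, the lowest of the 9 classes by mean. Treg cells held 236, 60.0, 265 and 232 CPM, on 65, 27, 159 and 140 cells. NK cells and Treg cells led in 2 libraries each, and thinning before gating put Treg cells first by mean, at 303 CPM against 233 CPM. PD-1+ CD8 cells held 34.6 CPM in WT young, 37.0 CPM in WT DEN-CDHFD and 14.8 CPM in miR-146a-/- DEN-CDHFD, the lowest of the 4 libraries, against a B-cell level of 4.42, 0.542, 0 and 1.04 CPM.

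Ncr1, the gene of NKp46, stood at 1450.1, 1090.4, 1257 and 1214 CPM in NK cells and at 1460.2, 1233, 1384 and 1379.6 CPM in ILC1. The pair lay within 1.14-fold of each other in each library. Gamma-delta T cells followed at 271, 229, 285 and 488 CPM, and NKT-like cells held 67.9, 147, 256 and 216 CPM, with WT young the lowest. PD-1+ CD8 cells, at 57.4, 33.7, 26.7 and 36.2 CPM, were above the B-cell level of 31.2, 12.8, 12.6 and 18.7 CPM in each library, with intervals that do not overlap. When T cells with UMIs of the adaptor genes Tyrobp and Fcer1g, read below, were left out, the mean of Ncr1 over libraries fell. It went from 38.5 to 2.19 CPM in PD-1+ CD8 cells, under the B-cell levels given here, and from 172 to 3.78 CPM in NKT-like cells.

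Cd226, an activating receptor for nectin-family ligands, differed from the other members in its class order. ILC1 held 522, 498, 539 and 545 CPM and NKT-like cells 570.3, 433, 419.5 and 383 CPM, so ILC1 led in 3 of 4 libraries. NK cells held 92.4, 118, 111 and 106 CPM, above Treg cells in 3 of 4 libraries and below all other classes by mean; PD-1+ CD8 cells exceeded them in 1 of 4. PD-1- non-naive CD8 cells held 413, 302, 266 and 272 CPM, and PD-1+ CD8 cells 260.3, 115, 82.7 and 75.5 CPM. WT young was the highest library in both CD8 classes. Thinning before gating put gamma-delta T cells first by mean, at 636 CPM against 513 CPM in ILC1.

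Within each library NK cells were set against ILC1, over genes with a mean of at least 20 CPM, and a gene was called when its CPM differed by more than 1.5-fold the same way in all 4 libraries. Of all 6472 genes tested, 8.51% were called. All 9 members were tested, with 1 higher in NK cells, 2 lower and 6 neither. Klrg1 was higher by log2 ratios of 4.67, 3.92, 4.16 and 4.32, the smallest of which has an interval of 3.55 to 4.34; it reached a mean of 20 CPM through NK cells, being under 20 CPM in ILC1. Cd226 gave log2 ratios of -2.50, -2.08, -2.28 and -2.36, and Klrb1b -0.92, -0.92, -1.16 and -0.98. For Klrc1 the log2 ratio was -1.04 in WT young (interval -1.11 to -0.96) and -0.58, -0.29 and -0.36 in the treated libraries. It was lower in NK cells in all 4 libraries, yet past 1.5-fold in WT young alone. The ratios of Klrb1c ran from 0.57 in WT young to 0.06 in miR-146a-/-, and those of Klrk1 and Ncr1 stayed between -0.18 and 0.03.

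**Figure D2:**
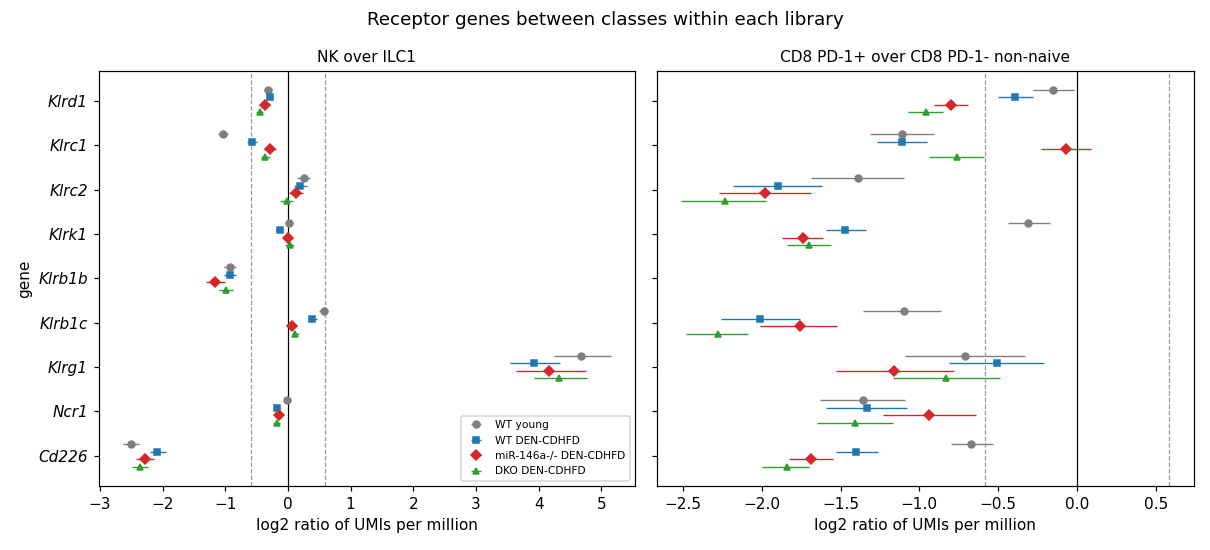
Log2 ratios of CPM between a pair of classes within each library, with 95% counting intervals; dashed lines mark 1.5-fold, and genes under a mean of 20 CPM are not drawn. In NK cells over ILC1 Klrg1 lies at 3.92 or above and Cd226 at -2.08 or below in all 4 libraries, and in PD-1+ over PD-1- non-naive CD8 cells all 8 genes drawn lie below 0 in all 4.

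The PD-1+ CD8 cells were set against the PD-1- non-naive CD8 cells in the same way, where 1.36% of 6412 genes were called. Of the 8 members with enough UMIs, 0 were higher in PD-1+ cells in all 4 libraries and 4 were lower (Klrc2, Klrb1c, Ncr1 and Cd226); Klrb1b had too few UMIs. Klrc2 gave log2 ratios of -1.39, -1.90, -1.98 and -2.23, Klrb1c -1.10, -2.01, -1.76 and -2.28, and Cd226 -0.67, -1.40, -1.69 and -1.84. Each of them was least lowered in WT young. Klrk1 gave -0.31 in WT young and -1.47, -1.74 and -1.70 in the treated libraries, with intervals of -0.44 to -0.17 in the former and -1.59 to -1.34 in WT DEN-CDHFD, which do not overlap. Ncr1 gave -1.36, -1.33, -0.94 and -1.41. The sign was negative in all 4 libraries for Klrd1, Klrc1, Klrk1 and Klrg1 as well, and the smallest difference was that of Klrc1 in miR-146a-/-, at -0.07 (interval -0.23 to 0.09). Without T cells with Tyrobp and Fcer1g UMIs, Ncr1 had means of 2.19 CPM in PD-1+ and 5.33 CPM in PD-1- non-naive cells. These are under 20 CPM, so Ncr1 would not be called there. In PD-1+ cells Klrc2 then had a mean of 14.1 CPM and Klrb1c one of 10.1 CPM.

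T cells can carry transcripts of innate lymphocytes, and the innate adaptor genes Tyrobp (DAP12) and Fcer1g moved along with these differences. Tyrobp stood at 205, 122, 106 and 186 CPM in PD-1+ CD8 cells and at 609, 309, 342 and 585 CPM in PD-1- non-naive CD8 cells. Fcer1g stood at 207, 142, 107 and 236 CPM and at 639, 579.7, 482 and 982 CPM. The share of cells with a UMI of both was 12.1%, 9.22%, 5.95% and 11.5% of PD-1+ cells and 25.3%, 28.4%, 18.9% and 32.4% of PD-1- non-naive cells, higher in the latter in each library. These shares are without thinning, and B cells gave 2.96%, 5.27%, 4.82% and 4.82%. In NKT-like cells it was 10.2%, 25.8%, 25.8% and 30.6%, with WT young the lowest, and Tyrobp there stood at 190.2, 409, 574 and 639 CPM. Whether such cells are innate-like T cells or droplets with more than 1 cell was not tested.

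The next comparison asks how the receptors differ between livers of untreated young mice and livers after DEN and CDHFD, both WT; age, DEN and diet change together and cannot be told apart. A gene was called when it was past 1.5-fold within a class. Since the mean of 20 CPM is taken over the 4 libraries, a gene may enter through the libraries in which it is high. In NK cells 1 of the 9 members was called, downward, against 4.49% of 6299 genes tested. That was Klrg1, with a log2 ratio of -0.95 (interval -1.07 to -0.84). Klrc2 at -0.50, Klrb1c at -0.49 and Ncr1 at -0.41 fell by less than 1.5-fold, and Cd226 was higher by 0.35, also less than 1.5-fold. In ILC1 0 of the 8 members tested were called, against 5.88% of 6548 genes, and the most changed was Klrc2 at -0.45.

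Of the 8 members tested in PD-1+ CD8 cells 0 were higher and 5 were lower in WT DEN-CDHFD, against 10.4% of 6369 genes called in either direction. The log2 ratio was -1.37 for Klrb1c (interval -1.64 to -1.11), -1.20 for Klrk1 (-1.32 to -1.08), -1.18 for Cd226 (-1.31 to -1.05) and -1.08 for Klrc2 (-1.39 to -0.77). The median log2 ratio of the 8 was -0.92, beside -0.01 over all genes tested. The gated PD-1+ cells also differed in other genes: Zbtb16, a gate gene of NKT-like cells, stood at 28.7, 3.79, 3.83 and 3.05 CPM, Il4 at 42.2, 3.44, 0 and 2.51 CPM, Cd40lg at 40.1, 7.14, 1.70 and 2.73 CPM, Cd160 at 373, 123, 295 and 285 CPM and Pdcd1 at 235, 612, 554 and 507 CPM. Zbtb16, Il4 and Cd40lg were thus highest in WT young, as the called members were, and their part in the result was not tested. Ncr1, at -0.77, turned positive when cells were thinned before gating (1.45, mean of 8.89 CPM). It also did so when T cells with Tyrobp and Fcer1g UMIs were left out (0.56, mean of 2.19 CPM). These means were under 20 CPM. When the B-cell level was subtracted, Ncr1 shrank to -0.33. The fall of Klrb1c shrank to -0.81 after thinning, and grew to -2.24 with at most 4000 features per cell and to -2.64 without the cells with Tyrobp and Fcer1g, that of Klrc2 to -1.68 with at most 4000 features, and that of Klrk1 to -1.96 after thinning. After thinning and without the cells with Tyrobp and Fcer1g, Klrc2 (means of 15.9 and 14.1 CPM) and Klrb1c (15.6 and 10.1 CPM) were under 20 CPM, so their calls ended there, while those of Klrk1 and Cd226 held under all 10 alternatives.

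In PD-1- non-naive CD8 cells 0 of the 8 members tested were higher and 1 was lower, against 4.91% of 6431 genes called. The contrast in number with PD-1+ cells was not tested and turned under an alternative: after thinning 2 members were called in PD-1+ and 4 in PD-1- non-naive cells, and without T cells with Tyrobp and Fcer1g 2 in each. The 1 was Ncr1 at -0.79, which became -0.32 with a stricter gate and 0.41 without the cells that held Tyrobp and Fcer1g. The value of 0.41 rests on a mean of 5.33 CPM, under 20 CPM. Klrk1 was at -0.04 (interval -0.18 to 0.09), where PD-1+ cells had -1.20; this difference between the classes was not tested. In NKT-like cells 4 of 9 members were higher and 0 lower, against 7.36% of 6506 genes. They were Ncr1 (1.12), Klrb1b (0.93), Klrg1 (0.85) and Klrc2 (0.73), the last of which shrank to 0.47 without the exclusion of B-cell and myeloid UMIs and to 0.21 after thinning. Each of the other 3 turned negative under at least 1 alternative: Ncr1 (1.87 after subtraction of the B-cell level) to -0.26 with a stricter gate, -0.61 after thinning and -1.35 without the cells with Tyrobp and Fcer1g, Klrb1b to -0.43 and -3.63 under the first and last of these, and Klrg1 to -0.30 after thinning. Klrb1b after thinning (mean of 16.3 CPM) and Klrg1 with at most 4000 features (0.92, 16.9 CPM) were under 20 CPM and so not called. The same held for Klrg1 after thinning (14.9 CPM) and without the cells with Tyrobp and Fcer1g (0.83, 17.9 CPM). The values of -0.61 and -1.35 for Ncr1 (19.0 and 3.78 CPM) and of -3.63 for Klrb1b (6.67 CPM) also rest on means under 20 CPM. Klrg1 stood below 20 CPM in WT young and entered through the libraries in which it is high. The gated NKT-like cells also differed in other genes between WT young and WT DEN-CDHFD. Il4 stood at 197 and 79.3 CPM, Cd40lg at 294 and 192 CPM and Ly6c2 at 579.8 and 1237 CPM, on 1438 and 155 cells. The part of such differences in the result was not tested.

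**Figure D3:**
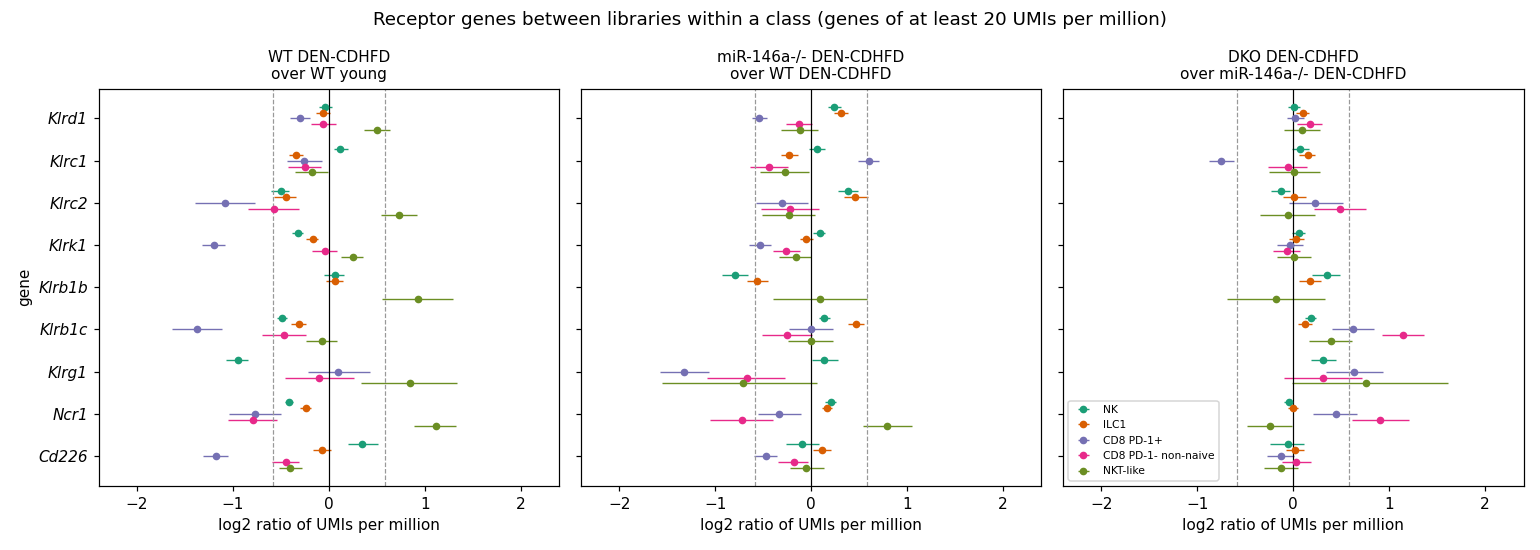
Log2 ratios of CPM between libraries within 5 classes for the 3 comparisons, with 95% counting intervals; dashed lines mark 1.5-fold, and genes under a mean of 20 CPM in a class are not drawn. In WT DEN-CDHFD over WT young 4 genes of PD-1+ CD8 cells lie at -1.08 or below, and in DKO over miR-146a-/- no gene of NK cells or ILC1 passes a dashed line.

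The effect of losing miR-146a was read between the miR-146a-/- and WT libraries, both after DEN and CDHFD. In NK cells 1 of the 9 members was called, against 5.37% of genes. It was Klrb1b, lower by a log2 ratio of -0.79 (interval -0.93 to -0.66). ILC1 had 0 of 8 called, against 5.12% of genes, yet Klrb1b was close at -0.56 (-0.67 to -0.45), which is 1.48-fold lower. Short of 1.5-fold, Klrc2 was higher by 0.39 in NK cells and 0.46 in ILC1, Klrd1 by 0.24 and 0.31, and Klrb1c by 0.14 and 0.47. In PD-1+ CD8 cells 1 of 8 members was higher and 1 lower, against 5.89% of genes. Klrc1 rose by 0.60 (0.49 to 0.71), a call that a stricter gate (0.53) and thinning (0.57) ended, and Klrg1 fell by 1.32 on the log2 scale (-1.58 to -1.06), a call that ended after thinning, where its mean of 11.9 CPM was under 20 CPM. The log2 ratio of Klrg1 after thinning was -1.83, so the mean alone ended its call. Klrd1 (-0.54), Klrk1 (-0.53) and Cd226 (-0.47) were lower by less than 1.5-fold. Outside PD-1+ cells Klrc1 did not rise in the same way. It was at -0.44 (-0.64 to -0.24) in PD-1- non-naive CD8 cells, -0.27 in NKT-like cells, -0.23 in ILC1 and 0.06 in NK cells.

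Fewer UMIs stood behind the calls in the other T classes. In PD-1- non-naive CD8 cells 0 of 8 members were higher and 2 lower, against 5.41% of genes: Ncr1 at -0.72 and Klrg1 at -0.67. The call of Ncr1 ended with a stricter gate (-0.11) and after thinning (-0.38). Its sign turned without the cells with Tyrobp and Fcer1g (0.22), on a mean of 5.33 CPM, under 20 CPM. The call of Klrg1 ended with no exclusion of B-cell and myeloid UMIs (-0.58), with at most 4000 features (-0.53), with the mean over cells (-0.50) and after thinning (-0.49). NKT-like cells had 1 of 9 members higher and 1 lower, against 9.15% of genes. Ncr1 was at 0.79, but at 0.42 without the exclusion of other transcripts, at -0.15 after thinning and at 1.76 with a stricter gate, and Klrg1 was at -0.71 with an interval that includes 0 (-1.55 to 0.06), at -0.41 with a stricter gate, at -0.51 without that exclusion and at -1.66 after thinning. Without the cells with Tyrobp and Fcer1g Ncr1 was at 1.12, on a mean of 3.78 CPM. The means of Klrg1 were 14.9 CPM after thinning, 16.9 CPM with at most 4000 features (-1.15) and 17.9 CPM without the cells with Tyrobp and Fcer1g (-0.66). All these means were under 20 CPM, which ends a call, and Klrg1 kept its call under 5 of 10 alternatives.

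The DKO library was set against the miR-146a-/- library to read the added loss of Ccl5. In NK cells 0 of 9 members were called, against 0.905% of genes, and in ILC1 0 of 8, against 1.41%. Klrb1b, lowered in miR-146a-/- NK cells, was higher by 0.35 (0.20 to 0.49) in DKO, and Klrg1 by 0.31, both less than 1.5-fold. In PD-1+ CD8 cells 2 of 8 members were higher and 1 lower, against 2.95% of genes. Klrc1 was lower by 0.75 on the log2 scale (-0.88 to -0.62), at 83.1 CPM in DKO and 139.7 CPM in miR-146a-/-, beside 92.3 CPM in WT DEN-CDHFD. Klrg1 rose by 0.63, a call that ended with a stricter gate (0.54), without the exclusion of other transcripts (0.38), after subtraction of the B-cell level (0.57) and after thinning (-0.02). After thinning its mean was 11.9 CPM, under 20 CPM. Klrb1c rose by 0.62, or by 0.57 without that exclusion, 0.11 after the subtraction and 2.35 after thinning, where its mean was under 20 CPM.

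In PD-1- non-naive CD8 cells 2 of 8 members were higher in DKO and 0 lower, against 2.29% of genes. They were Klrb1c at 1.14 and Ncr1 at 0.90, which became 0.26 and -1.34 without the cells that held Tyrobp and Fcer1g. The value of -1.34 for Ncr1 rests on a mean of 5.33 CPM, under 20 CPM. Fcer1g itself was higher in DKO by 1.03 in this class and by 1.14 in PD-1+ cells, and its part in the result was not tested. NKT-like cells had 1 of 9 members higher and 0 lower, against 6.72% of genes: Klrg1 at 0.76, with an interval that includes 0 (-0.01 to 1.61) and with values of 2.67 after thinning and 1.59 without the cells with Tyrobp and Fcer1g, where its mean was under 20 CPM. It stood at 17.5 CPM in miR-146a-/- and at 29.9 CPM in DKO, so it entered through libraries in which it is high.

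NK cells were further divided by maturation, for which Cd27 marks earlier and Itgam (CD11b) later stages. Cells with a Cd27 UMI and no Itgam UMI made up 9.55%, 24.5%, 21.2% and 19.6% of NK cells (91, 152, 99 and 120 cells). Those with Itgam and no Cd27 made up 60.8%, 33.1%, 38.5% and 42.9% (579, 205, 180 and 262 cells), the most in WT young. Their exact binomial intervals were 57.6% to 63.9% in WT young and 29.4% to 36.9% in WT DEN-CDHFD, which do not overlap. Itgam itself counted toward the NK gate. These stages rest on unthinned cells, whose median depth differs between the libraries (6579 UMIs in WT young and 8093.5 in WT DEN-CDHFD), and the part of depth in the shares was not tested.

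Klrg1 separated the stages most among the members. It stood at 79.3, 35.3, 18.8 and 29.1 CPM in Cd27+ Itgam- cells and at 448, 367, 422 and 441 CPM in Cd27- Itgam+ cells. Within the later stage WT DEN-CDHFD was below WT young by a log2 ratio of -0.29 (interval -0.43 to -0.15), where all NK cells gave -0.95. Within the earlier stage the ratio was -1.16 (-1.71 to -0.63), on 58 and 63 UMIs. The smaller share of Itgam+ cells moved with the fall of Klrg1 in all NK cells, and its part in the result was not tested.

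Klrb1c was also higher in the later stage in each library, by log2 ratios of 0.58, 0.77, 0.75 and 0.62, and Ncr1 by 0.33, 0.44, 0.24 and 0.26. Cd226 was lower there, by -0.65, -0.26, -0.56 and -1.19, of which that of WT DEN-CDHFD has an interval that includes 0 (-0.57 to 0.04). Klrb1b did not differ between the stages in WT young (0.03, interval -0.19 to 0.26) and was 1.13 higher in the later stage in miR-146a-/- (0.81 to 1.46). Its level ran 251, 223, 94.2 and 139.5 CPM in the earlier stage and 256, 268, 206 and 216 CPM in the later stage. The ratio of miR-146a-/- to WT, both treated, was therefore -1.24 (-1.57 to -0.93) in the earlier stage and -0.38 (-0.60 to -0.16) in the later stage. Klrc2 was higher in the later stage by 0.29, 0.58, 0.18 and 0.35, and Klrc1 had no common sign (-0.37, -0.29, 0.16 and -0.04). The interval of Klrc2 in miR-146a-/- includes 0 (-0.02 to 0.37). The ratios for Klrd1 and Klrk1 lay between -0.07 and 0.14 in all 4 libraries.

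**Figure D4:**
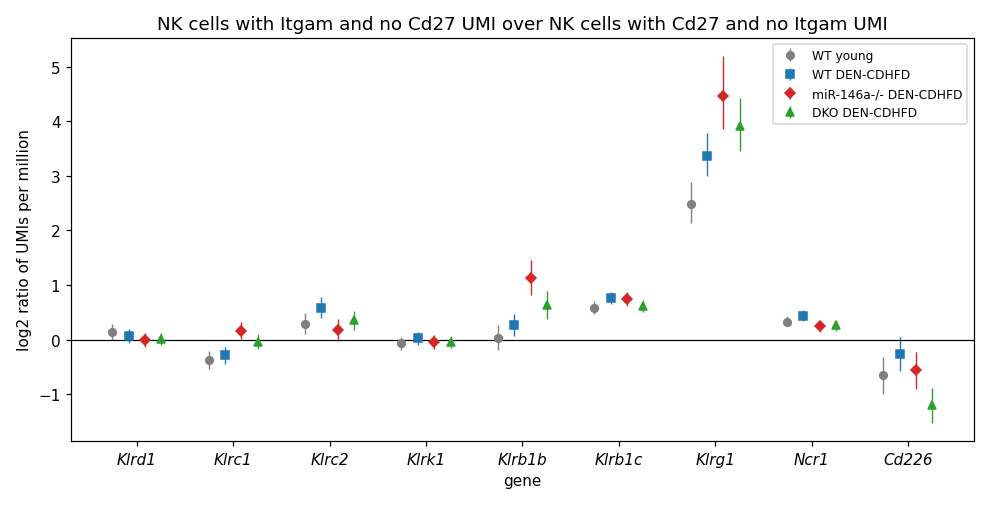
Log2 ratios of CPM between NK cells with Itgam and no Cd27 UMI and NK cells with Cd27 and no Itgam UMI, 1 marker per library with 95% counting intervals. Klrg1 lies between 2.49 and 4.46 and Klrb1c between 0.58 and 0.77, while Klrd1 and Klrk1 stay near 0.

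Shares of cells with a UMI depend on depth, so cells were thinned to 2000 UMIs each, without those that had fewer (12, 17, 37 and 20 NK cells and 1, 8, 8 and 4 PD-1+ CD8 cells). After thinning Klrg1 was found in 37.5%, 22.2%, 23.5% and 31.1% of NK cells. Without thinning these shares were 63.7%, 41.8%, 37.7% and 49.3%, at median depths of 6579, 8093.5, 9125 and 8325 UMIs. In B cells, with median depths of 5590.5, 6695, 6916 and 6470 UMIs, thinned shares were 0.364% in WT young and 0 of 632, 0 of 415 and 0 of 639 cells in the others, whose exact upper limits are 0.582%, 0.885% and 0.576%. Unthinned B cells gave 1.08%, 0.155%, 0 and 0.622%. Klrb1b was found in 34.1%, 32.3%, 22.6% and 27.2% of thinned NK cells (52.9%, 56.3%, 44.1% and 47.0% unthinned), again with miR-146a-/- the lowest, and in 0.241% to 0.729% of thinned B cells.

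In PD-1+ CD8 cells Klrk1 was found in 32.9%, 14.9%, 9.20% and 9.33% of thinned cells and in 51.2%, 29.5%, 18.1% and 16.3% of unthinned cells. Their median depths were 6942.5, 7068.5, 6762 and 5924 UMIs, and thinned B cells held 0.723% to 1.37%. Cd226 was found in 30.9%, 15.5%, 9.66% and 8.21% of thinned cells (66.3%, 38.3%, 22.8% and 18.6% unthinned), beside 3.01%, 0.949%, 0.723% and 1.25% of B cells. For both genes the order of the libraries had WT young first and WT DEN-CDHFD second, with intervals that do not overlap between them. Klrc1 was found in 13.4%, 11.8%, 16.6% and 9.49% of thinned cells (27.2%, 24.9%, 35.6% and 17.6% unthinned), with 1.09%, 0.791% and 0.482% in B cells of the first 3 libraries and 7 of 639 B cells in DKO, and miR-146a-/- was the highest. Ncr1, at 5.34%, 2.56%, 1.64% and 2.39% of thinned PD-1+ cells (8.28%, 4.87%, 3.01% and 3.66% unthinned), stands beside B-cell shares of 1.64%, 0.949%, 0.723% and 1.56%, and their intervals overlap in the treated libraries.

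Because CD94 is the partner of the NKG2A and NKG2C chains, the thinned cells were read for joint detection. Among PD-1+ CD8 cells, Klrd1 was found in 46.7%, 44.2%, 33.3% and 43.7% of cells with a Klrc1 UMI and in 34.6%, 29.3%, 15.8% and 17.2% of cells without one. The share was higher with Klrc1 in each library, and the intervals overlap in WT young. Klrd1 was in 61.3%, 58.9%, 55.7% and 54.7% of cells with a Klrk1 UMI and in 23.9%, 26.2%, 14.9% and 16.1% of cells without. Cells with a Klrc2 UMI (16, 33, 33 and 31) held Klrd1 in 75.0%, 42.4%, 30.3% and 54.8%, against 34.3%, 30.8%, 18.4% and 18.8% of cells without, and these intervals overlap in WT DEN-CDHFD and miR-146a-/-. Among NK cells the difference with Klrc1 did not hold in all 4 libraries: Klrd1 was in 70.0%, 65.5%, 81.9% and 71.5% of cells with Klrc1 and in 66.0%, 75.6%, 72.6% and 73.5% of cells without. Nor did it in ILC1, at 65.1%, 66.3%, 80.8% and 82.9% with Klrc1 and 71.8%, 73.6%, 78.0% and 80.3% without. With Klrc2 the share was higher in all 4, at 70.4%, 76.1%, 77.2% and 75.8% of NK cells with it and 64.8%, 67.5%, 76.8% and 70.1% without. ILC1 gave 74.1%, 74.8%, 85.5% and 84.5% with Klrc2 and 62.1%, 66.2%, 74.1% and 79.6% without, also higher in all 4, and the intervals overlap or touch in each library in both classes.

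The inhibitory and the activating chain were read together in the same way. Klrc2 was in 38.1%, 31.5%, 40.2% and 30.7% of NK cells with a Klrc1 UMI and in 57.3%, 50.9%, 53.1% and 53.9% of NK cells without one. ILC1 gave 39.4%, 32.3%, 37.9% and 36.6% with Klrc1 and 53.5%, 44.5%, 56.6% and 53.3% without. Within both classes the share was lower with Klrc1 than without in all 4 libraries, and the intervals overlap in miR-146a-/- NK cells alone. In PD-1+ CD8 cells the order was the reverse, at 8.89%, 5.13%, 5.95% and 5.04% with Klrc1 and 4.11%, 2.14%, 1.42% and 2.20% without, on 4, 8, 15 and 6 cells with both, and the intervals overlap in each library but miR-146a-/-. PD-1- non-naive CD8 cells gave 18.1%, 17.6%, 9.09% and 19.6% with Klrc1 and 13.8%, 8.68%, 8.55% and 13.1% without, with intervals that overlap in each library. NKT-like cells had no common order. No joint detection, of Klrd1 or of Klrc2, was read without the T cells that hold Tyrobp and Fcer1g, and their part in it was not tested.

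The other receptors of the NK gene complex were read from a list of 19 genes, of which 18 are in the matrices. In WT DEN-CDHFD over WT young, of 12 tested in NK cells 0 were higher and 3 lower (Klra9 at -0.93, Klra8 at -0.91 and Klra4 at -0.67), where 4.49% of all genes were called, and the median log2 ratio of the list was -0.23 beside -0.01 over all genes. PD-1+ CD8 cells had 4 tested and 3 lower, namely Klrb1f at -2.00, Klra9 at -1.91 and Klre1 at -1.13, where 10.4% of all genes were called. Of these Klrb1f and Klra9 were above 20 CPM in WT young alone, so they entered through the library in which they were high. The NKT-like cells had 10 tested and 9 higher, with a median of 1.03, where 7.36% of all genes were called; Klra4, Klra5 and Klrb1a were under 20 CPM in WT young and entered through the treated libraries. In the same NKT-like cells Tyrobp rose from 190.2 to 409 CPM and Fcer1g from 226 to 587 CPM, and their part in the result was not tested. In ILC1 1 of 9 was lower (5.88% of all genes), and in PD-1- non-naive CD8 cells 3 of 9 were higher and 3 lower (4.91%). In miR-146a-/- over WT, 5 of the 12 in NK cells were higher and 0 lower (Klra6 at 1.86, Klrc3 at 1.05, Klra1 at 0.76, Klra7 at 0.65 and Klra8 at 0.64), against 5.37% of all genes, and Klrb1b was lower there. Klra6 was under 20 CPM in both WT libraries and entered through the others. Klrc3 is the gene with a frame 94.9% identical to that of Klrc2. ILC1 had 1 of 9 higher (Klrc3 at 1.03; 5.12% of all genes), PD-1+ CD8 cells 1 of 4 lower (5.89%), PD-1- non-naive CD8 cells 1 of 9 higher and 3 lower (5.41%), and NKT-like cells 1 of 10 higher and 4 lower (9.15%). In DKO over miR-146a-/- 0 of the 12 in NK cells, 0 of the 9 in ILC1 and 0 of the 4 in PD-1+ CD8 cells passed the fold (0.905%, 1.41% and 2.95% of all genes), while 3 of 9 in PD-1- non-naive CD8 cells (2.29%) and 4 of 10 in NKT-like cells (6.72%) were higher and 0 lower. Klra3, Klra5 and Klrb1a, the 3 in PD-1- non-naive CD8 cells, and Klra4 in NKT-like cells were under 20 CPM in miR-146a-/- and entered through other libraries.

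Of adaptor and signalling genes, 0 of the 11 tested in NK cells and 0 of the 10 tested in ILC1 passed the fold in any of the 3 comparisons, against 4.49%, 5.37% and 0.905% of all genes in NK cells and 5.88%, 5.12% and 1.41% in ILC1. Sh2d1a was under 20 CPM in ILC1. Tyrobp and Fcer1g are on this list, and the gates of NK cells and ILC1 asked for a UMI of either. In PD-1+ CD8 cells, with 9 tested, WT DEN-CDHFD over WT young had 1 higher (Sh2d1a at 1.14) and 2 lower (Ptpn6 at -1.09 and Tyrobp at -0.75), against 10.4% of all genes. Hcst, the adaptor of NKG2D, stood at 699, 479, 887 and 766 CPM in these cells, and its ratio of 0.89 for miR-146a-/- over WT was the 1 past the fold there, against 5.89% of all genes. The rise of Hcst was not particular to PD-1+ cells. It passed the fold in NKT-like cells as well (0.65, against 9.15% of all genes). Short of 1.5-fold, it was higher in NK cells (0.55), ILC1 (0.55) and PD-1- non-naive CD8 cells (0.51). In each of these classes WT DEN-CDHFD held the least Hcst of the libraries. In DKO over miR-146a-/- 3 of the 9 were higher in PD-1+ cells (Fcer1g at 1.14, Tyrobp at 0.81 and Ptpn6 at 0.61), against 2.95%. The receptors that share ligands with CD226 are Tigit, Cd96 and Pvrig. Tigit stood at 195, 743, 456 and 450.3 CPM in PD-1+ CD8 cells, lowest in WT young, where Cd226 was highest. Its log2 ratio for WT DEN-CDHFD over WT young was 1.93 in these cells, 0.89 in NK cells, 1.05 in ILC1, 0.74 in PD-1- non-naive CD8 cells and 1.82 in NKT-like cells. In miR-146a-/- over WT it was -0.70 in PD-1+ CD8 cells, and Cd96 rose by 0.69 in NK cells. Pvrig did not pass the fold in any of these 5 classes.

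Ligand genes were read from a list of 18, of which 14 are in the matrices and 5 reached 20 CPM in NK cells. H2-T23, which encodes Qa-1, stood at 574, 625, 636 and 601 CPM in B cells and at 681, 586, 466 and 429 CPM in myeloid cells, and did not pass the fold in any of the 5 lymphocyte classes compared. Over those classes the ligand list gave in WT DEN-CDHFD over WT young 1 higher of 5 in NK cells (Ulbp1 at 1.14), 0 in ILC1, 1 higher (Ulbp1) and 1 lower (Clec2i at -1.78) in PD-1+ CD8 cells, 1 higher in PD-1- non-naive CD8 cells (Ulbp1 at 0.61) and 1 of each in NKT-like cells (Ulbp1 at 0.71 and Clec2i at -0.66). Over all genes 4.49%, 5.88%, 10.4%, 4.91% and 7.36% were called in these classes. Ulbp1 was under 20 CPM in WT young in NK and both CD8 classes. Raet1e, a ligand of NKG2D, was lower in miR-146a-/- than in WT by -0.72 in NK cells, -0.85 in ILC1, -1.05 in PD-1- non-naive CD8 cells and -0.96 in NKT-like cells. PD-1+ CD8 cells had 1 higher (Clec2i at 0.74) and 1 lower (Ulbp1 at -0.95). The shares over all genes in that comparison are the 5.12% to 9.15% given above. In DKO over miR-146a-/- 1 was higher in PD-1+ CD8 cells (Ulbp1 at 0.67), 1 lower in NKT-like cells (Raet1e at -0.76) and 0 passed the fold in the other 3 classes, against 2.95% and 6.72% of all genes in the former and 0.905%, 1.41% and 2.29% in NK cells, ILC1 and PD-1- non-naive CD8 cells. The livers' tumour and epithelial cells, where such ligands are mostly read, are not among these sorted cells.

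The genes most like each member were taken by Pearson correlation of log2(CPM + 1) over 42 class-by-library sums of at least 50 cells, among 6691 genes. These sums share 4 libraries and differ mainly by class, so the correlations describe class patterns. Klrc2 was most like Klre1 (r = 0.979), Klrk1 (0.971) and Klrb1c (0.954), and Klrc1 most like Klre1 (0.966), Txk (0.963) and Samd3 (0.960). Klrk1 was most like Klrc2, Klre1 (0.970) and Klrc1 (0.951). The closest to Klrd1 were Atp8b4 (0.945), Klrk1 (0.943) and Gas7 (0.923). Klrb1c was most like Klrb1f (0.980), Ncr1 (0.958) and Styk1 (0.955), and Ncr1 most like Klrb1a (0.969), Klrb1f (0.961) and Klrb1c. The closest to Klrb1b were Ncr1 (0.914), Trdv4 (0.911) and Klrb1a (0.911). Klrg1 had the lowest r to the other members. It was most like Ppp2ca (0.890), Lgals1 (0.852) and Cast (0.845), with r between 0.238 and 0.496 to the other 8 members. Cd226 was most like Adgrl1 (0.966), Btbd11 (0.944) and Eya2 (0.943), with r from 0.488 to Klrg1 up to 0.822 to Klrc1 among members.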

How the data were processed

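The authors deposited raw UMI count matrices, 1 per library, made with Cell Ranger 7.0.1 per the file headers and mm10 per the labels, and these counts were not normalized. The methods of the paper name another Cell Ranger version, and the use of intronic reads is not given. Kept cells had from 600 up to 6000 features and no more than 5% of UMIs from mitochondria. The upper feature limit (4000 as an alternative) and the exclusion of lymphocytes with B-cell or myeloid UMIs were the only steps that bear on doublets; no doublet caller was run. Classes were gated by markers that include no member. UMIs were summed per class and library and divided by the class total (CPM, exact Poisson 95% intervals); log2 ratios used a prior of 0.5 counts. With 1 library per group no test was run. Shares used cells thinned to 2000 UMIs with exact Clopper-Pearson intervals. All 9 members are named, the 3 genes most like each, and genes of 4 lists by count; values named within lists were chosen after they were seen. Members and lists were chosen with earlier results of these data known. The rule for calling ratios was tested on simulated data with counting error alone, which hold no variation between mice or libraries. Alternatives, 11 planned for the ratios and 2 added after seeing the data, are given at the end. Used were Python 3.11.15, numpy 2.4.6, scipy 1.17.1, pandas 2.3.3, Biopython 1.88, matplotlib 3.10.9, R 4.3.3 and edgeR 4.0.16 (TMM factors). Genes were matched by symbol; coordinates are from GENCODE M21 and promoter windows from RefSeq.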

Additional observations from a re-analysis of the deposited data

Results flagged for a closer look

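Some members moved in opposite directions in different classes under the same comparison. In WT DEN-CDHFD over WT young, Klrc2 gave a log2 ratio of 0.73 in NKT-like cells and -1.08 in PD-1+ CD8 cells. Klrg1 gave 0.85 in NKT-like cells and -0.95 in NK cells. Ncr1 gave 1.12 in NKT-like cells, -0.77 in PD-1+ CD8 cells and -0.79 in PD-1- non-naive CD8 cells. In miR-146a-/- over WT, both after DEN and CDHFD, Ncr1 gave 0.79 in NKT-like cells and -0.72 in PD-1- non-naive CD8 cells. With 1 library per group these differences between classes were not tested. After thinning before gating Ncr1 in the first comparison was -0.61 in NKT-like cells and 1.45 in PD-1+ CD8 cells, the reverse order, Klrg1 in NKT-like cells was -0.30, and Ncr1 in NKT-like cells in the other comparison was -0.15. The means behind these thinned values were under 20 CPM. They were 19.0 CPM for Ncr1 and 14.9 CPM for Klrg1 in NKT-like cells, and 8.89 CPM for Ncr1 in PD-1+ CD8 cells.

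Klrd1 also appeared outside the lymphocyte classes. Myeloid cells with a Siglech UMI, a gene of plasmacytoid dendritic cells, held 270.3 CPM in WT young, 318 in WT DEN-CDHFD, 391 in miR-146a-/- DEN-CDHFD and 391 in DKO DEN-CDHFD, against 14.2, 12.7, 9.83 and 16.8 CPM in B cells. Cd3e in the same cells was at 7.08, 3.38, 1.68 and 0.926 CPM, Klrc1 at 9.91, 0, 0.842 and 6.02 CPM and Nkg7 at 74.1, 4.22, 2.95 and 30.1 CPM. Klrd1 was not confined to the cells with Siglech. Myeloid cells with Xcr1 or Clec9a and no Siglech UMI held it at 66.8, 157, 86.1 and 109.6 CPM. Those with none of these genes held 164, 129.8, 78.3 and 97.6 CPM, so both were also above B cells. All these subsets were chosen after seeing the data.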

How the results depend on the processing

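Of the 24 calls of a member in a class, 24 kept their direction and 24 their call under TMM factors, with a mitochondrial limit of 10% and with a prior of 5 counts. A call needs both 1.5-fold and a mean of 20 CPM. The direction was kept by 24 and the call by 20 with at most 4000 features, by 24 and 23 with the mean over cells, by 24 and 21 after subtraction of the B-cell level, by 24 and 18 without the exclusion of B-cell and myeloid UMIs, by 22 and 17 with a stricter gate and by 19 and 8 after thinning before gating. Chosen after seeing the data, leaving out T cells with Tyrobp and Fcer1g kept 16 and 8 of 22, and an NK over ILC1 margin of 2 UMIs kept 2 of 2. Klrg1 in NK cells (WT DEN-CDHFD over WT young, -0.96 to -0.90) and Klrb1b in NK cells (miR-146a-/- over WT, -0.90 to -0.75) were called under all 10 alternatives tried on them, as were, in PD-1+ CD8 cells, Klrk1 and Cd226 (WT DEN-CDHFD over WT young) and Klrc1 (DKO over miR-146a-/-). These 10 do not include the 2-fold limit. Under that limit Klrg1 (1.94-fold lower), Klrb1b (1.73-fold lower) and Klrc1 (1.68-fold lower) were not called in these comparisons.

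Directions turned in the following cases, and the cause was not tested. Those after thinning and without T cells with Tyrobp and Fcer1g rest on means under 20 CPM, from 2.19 to 19.0 CPM. After thinning: in WT DEN-CDHFD over WT young Ncr1 in PD-1+ CD8 (1.45), Klrg1 (-0.30) and Ncr1 (-0.61) in NKT-like cells, in miR-146a-/- over WT Ncr1 in NKT-like cells (-0.15), and in DKO over miR-146a-/- Klrg1 in PD-1+ CD8 (-0.02). With the stricter gate: Klrb1b (-0.43) and Ncr1 (-0.26) in NKT-like cells, WT DEN-CDHFD over WT young. Without T cells with Tyrobp and Fcer1g: Ncr1 in PD-1+ CD8 (0.56) and PD-1- non-naive CD8 (0.41), Klrb1b (-3.63) and Ncr1 (-1.35) in NKT-like cells, and Ncr1 in PD-1- non-naive CD8 cells in miR-146a-/- over WT (0.22) and DKO over miR-146a-/- (-1.34).

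Counts of members called moved by over 1.5-fold as follows, and the cause was not tested except that a 2-fold limit and a minimum of 50 CPM admit fewer genes. In WT DEN-CDHFD over WT young, thinning gave 2 in PD-1+ CD8, 4 in PD-1- non-naive CD8 and 0 in NKT-like cells, the stricter gate 2 in NKT-like cells, no exclusion 4 in PD-1- non-naive CD8, leaving out T cells with Tyrobp and Fcer1g 2 in each of PD-1+, PD-1- non-naive and NKT-like cells, a 2-fold limit 0 in NK, 0 in PD-1- non-naive CD8 and 1 in NKT-like cells, and 50 CPM 2 in PD-1+ CD8 and 2 in NKT-like cells. In miR-146a-/- over WT, thinning gave 2 in ILC1 and 0 in PD-1- non-naive CD8, the stricter gate 1 in ILC1 and 1 in PD-1- non-naive CD8, no exclusion 1 in PD-1- non-naive CD8 and 1 in NKT-like cells, at most 4000 features 1 in PD-1- non-naive CD8, the mean over cells 4 in PD-1+ and 1 in PD-1- non-naive CD8, leaving out T cells with Tyrobp and Fcer1g 0 in NKT-like cells, a 2-fold limit 0 in NK, 1 in PD-1+ CD8, 0 in PD-1- non-naive CD8 and 0 in NKT-like cells, and 50 CPM 1 in each of the last 3. In DKO over miR-146a-/-, thinning gave 1 in PD-1+ CD8 and 4 in NKT-like cells, the stricter gate 3 in NKT-like cells, no exclusion 1 and the B-cell subtraction 1 in PD-1+ CD8, at most 4000 features 0 in NKT-like cells, leaving out T cells with Tyrobp and Fcer1g 0 in PD-1- non-naive CD8 and 0 in NKT-like cells, a 2-fold limit 0 in PD-1+ CD8, 1 in PD-1- non-naive CD8 and 0 in NKT-like cells, and 50 CPM 1 in PD-1+ CD8 and 0 in NKT-like cells.

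Cell numbers limit the rarer classes: NKT-like cells number 132 to 157 in the treated libraries, Treg cells 27 to 159 and gamma-delta T cells 33 to 80.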
